A study of Homo sapiens with 4 samples.

Results

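The comparison described here set the RNA of MM.1S cells treated with MLN4924 for 16 h against the RNA of control MM.1S cells, 2 of the 4 arrays of the series. MM.1S is an established human multiple myeloma line. Treated cells received 250 nM MLN4924, the control cells received the vehicle DMSO, and the other 2 arrays held cells given the same dose for 8 h and for 24 h. Each group was 1 sample on 1 array, and the control label gave no time in culture, so treatment, time and culture cannot be told apart. A gene was represented by its brightest probe set among those assigned to a single gene, and was kept when its mean over the arrays was above that of the median probe set. This left 12446 of 19775 genes, called measured genes below, and 7329 genes were too dim. Every value is that of 1 array, no test between groups was possible, and a difference is given as a log2 ratio of deposited intensities, so that 1 is 2-fold.

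MLN4924 blocks the NEDD8-activating enzyme, a dimer of NAE1 and UBA3. That enzyme charges the ubiquitin-like protein NEDD8, which is then attached to cullins, the scaffolds of the largest family of ubiquitin ligases. Without NEDD8 these ligases lose activity and the proteins they mark for the proteasome persist. Known substrates include the replication licensing factor CDT1, the antioxidant regulator NRF2, the hypoxia-inducible factors and the NF-kB inhibitor IkB. Plasma cells, the origin of myeloma, secrete large amounts of antibody and depend on protein folding and turnover.

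At 16 h, 48 measured genes were at least 2-fold higher than on the control array, 0.386% of those measured. Another 36 were at least 2-fold lower, or 0.289%. At 1.5-fold the counts were 279 higher (2.24%) and 340 lower (2.73%). The median difference over all measured genes was 0.03, and 54.3% of them lay above 0. The higher genes were led by the adhesion molecule NCAM1 and by enzymes of the NRF2 programme, and the lower genes by the spindle motor CENPE and by TEX15, CDCA7 and KIF20B. Where probe sets disagreed, the size of a gene's difference depended on which was read. With the median over all probe sets of a gene in place of the brightest, the 2-fold counts were 30 higher and 22 lower. Of the 84 genes past 2-fold, 39 had another measured probe set, and in 35 of these every one lay on the same side of 0.

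The 24 h array shared the control array with the 16 h array, so an unusual control value would appear at both times. Of the 48 higher genes, 39 were also at least 2-fold higher at 24 h and 9 were between 0.5 and 1 there. None was raised on the 16 h array alone, that is, 2-fold at 16 h and under 0.5 in that direction at both 8 h and 24 h. Of the 36 lower genes, 12 were also 2-fold lower at 24 h, 16 were between -0.5 and -1, and 8 were lower on the 16 h array alone. No gene past 2-fold at 16 h had faded from 8 h, with 0.5 or more at 8 h and less than 0.5 at 24 h. The 24 h array itself had 64 genes 2-fold higher (0.514% of measured genes) and 24 lower (0.193%), and at 1.5-fold 2.85% were higher and 2.31% lower there. At 8 h, 1.12% of measured genes were 1.5-fold lower. The state at 16 h thus held a higher side that was present in full or in part at 24 h. The lower side ranged from genes also 2-fold lower at 24 h to genes under 0.5 in size there. Its largest class was the 16 intermediate genes. Genes past the same fold at 24 h are called lasting below, and genes lower on the 16 h array alone are called passing. These names describe 1 array per time, and the class boundaries depended on the limits set.

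**Figure D1:**
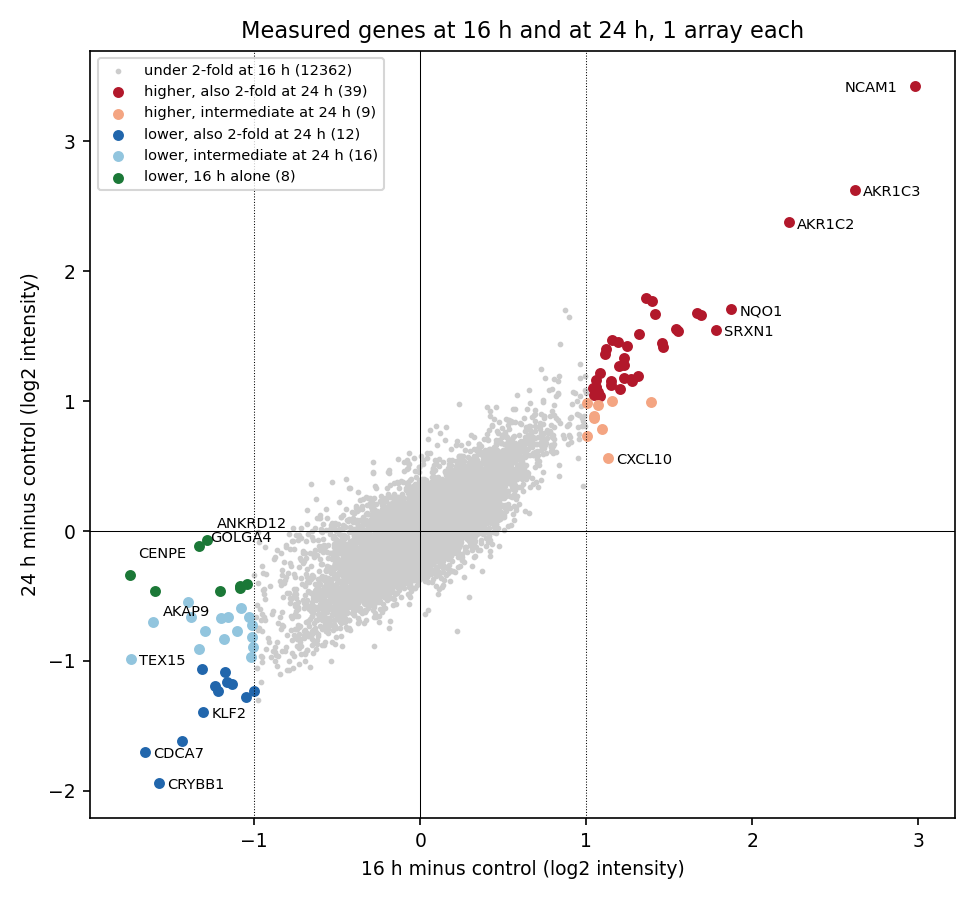
Each point is 1 of the 12446 measured genes, with its log2 difference from the control array at 16 h on the horizontal axis and at 24 h on the vertical axis, 1 array each. Dotted lines mark 2-fold at 16 h and colours give the classes. The 8 green genes lie between -0.46 and -0.07 at 24 h, and the higher gene nearest to 0 there, CXCL10, lies at 0.57.

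Technical measures on these arrays were as follows. The pooled SD between probe sets of the same gene, a stand-in for technical spread that leaves out the spread between cultures, was 0.189 for the 16 h difference over 5719 genes. The 9 hybridisation spike-in probe sets, which read transcripts added to the labelled sample, had a median difference from the control array of -0.25 at 16 h, against -0.05 at 8 h and -0.08 at 24 h. The 12 poly-A spike-in probe sets, which read transcripts added before labelling, differed from control by -0.07 at 16 h and by 0.29 at 24 h. The ACTB probe sets had a 3' to 5' ratio of 2.21 for the control and 2.14 for 16 h, and the GAPDH probe sets had 1.19 and 1.18. Markers of plasma and myeloma cells were measured for 10 of 10 genes, and their intensities summed to 74406 for the control and 72072 for 16 h. Of the markers of other cells, 1 of 6 for fibroblasts, 2 of 5 for T and NK cells, 1 of 6 for myeloid cells and 2 of 4 for erythroid cells were measured, and none of these was 1.5-fold different at 16 h.

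In what follows, 4 intensities given together are those of the control, 8 h, 16 h and 24 h arrays in that order, and 3 differences given together are those of 8 h, 16 h and 24 h from control. NCAM1, the adhesion molecule CD56 that serves as a surface marker of myeloma cells, had intensities of 77.4, 262, 612 and 832. It was the highest gene at 16 h, 7.91-fold above control. Its control value lay under the array median of 92.2, so the fold rests on a dim control reading. Its other 3 measured probe sets gave 0.28, 0.56 and 2.73 at 16 h, all above 0 but far apart in size. Of the 48 higher genes, 7 had a control intensity under the array median, and of the 36 lower genes none did. This contrast follows largely from the filter, which took the mean over all arrays. Higher genes with a dim control could pass through their treated arrays, and lower genes could hardly pass with one.

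Enzymes of the NRF2 programme made up the next 4 of the highest genes. NRF2 is a transcription factor that the CUL3 ligase with its adaptor KEAP1 normally removes, and its targets detoxify reactive compounds and keep glutathione and thioredoxin reduced. Of 26 measured NRF2 targets, 23 lay above 0 at 16 h, 10 were at least 1.5-fold higher and none was 1.5-fold lower, with a median of 0.47. AKR1C3, an aldo-keto reductase acting on steroids, had intensities of 172, 551, 1056 and 1061, and was 6.14-fold higher. AKR1C2, its close relative, had intensities of 102, 273, 477 and 530.4. AKR1C1, with 166, 283, 458 and 443, was the most uncertain of the family, since the sequences are alike and its other probe sets brought its median over probe sets to 0.29. In each of the 3 genes the reading at 16 h was above those of control and 8 h.

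NQO1, the quinone reductase most often used to report NRF2 activity, read 348, 1069, 1275 and 1136. SRXN1, the sulfiredoxin that repairs peroxiredoxins, read 1276, 5834, 4388 and 3737, and TXNRD1, thioredoxin reductase, read 3792, 10501, 8036 and 7809. SRXN1 and TXNRD1 had their highest values at 8 h, while the aldo-keto reductases were higher at 16 h than at 8 h. NQO1 was also higher at 16 h on 2 of its 3 probe sets, and the third gave 2.05 at 8 h and 1.75 at 16 h. The glutathione genes GSR (glutathione reductase, 0.90) and GCLM (modifier subunit of glutamate-cysteine ligase, 0.67) were at 1.46 and 1.51 at 8 h. The pentose phosphate enzyme TKT stood at 0.89 and the ferritin light chain FTL at 0.73. The list therefore held members past their peak at 16 h beside members still near it. NFE2L2, which encodes NRF2 itself, differed by -0.05, and KEAP1 by 0.30. Without the probe sets whose names mark possible cross-hybridisation, the median of the list was 0.26. The core letters TGANNNNGC of the antioxidant response element were searched on both strands of the 250 bases before the start. They were present in 10 of 21 promoters of the list (47.6%) and in 36.0% of the promoters of all measured genes. The letters are thus common in windows of this length. Genes 2-fold higher at 16 h held them in 34.1% of promoters and genes 1.5-fold higher in 32.0%. The share was 50.9% for the spindle list and 20 of 30 (66.7%) for the lower genes apart on the 16 h array, both described below.

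Genes of lymphoid surface signalling formed another portion of the higher side. Of 37 measured lymphoid surface receptors and related genes, 29 lay above 0 at 16 h and 6 were 1.5-fold higher, NCAM1 among them, with a median of 0.22. CXCR3, the receptor of the interferon-induced chemokines, read 659, 1005, 1755 and 2099. RGS1, which shortens signalling by G protein-coupled receptors, read 3043, 3116, 7209 and 8172. P2RY10, a receptor for lysophosphatidylserine, read 902, 1617, 2065 and 2175. RGS1 was at the control level at 8 h, whereas CXCR3 and P2RY10 were already above it. CD37, a tetraspanin of B cells, stood at 0.78, and TRAT1, an adaptor first described at the T cell receptor, read 594, 1352, 1357 and 1628. Signalling enzymes in the same 2-fold class were PIK3CG, the catalytic subunit of phosphoinositide 3-kinase gamma (0.23, 1.04 and 1.10), and PDE4B, a phosphodiesterase that breaks down cyclic AMP (0.39, 1.16 and 1.47).

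Adenine nucleotide and matrix genes were also among the 39 lasting higher genes. NT5E, the surface enzyme CD73 that makes adenosine from AMP, read 131, 152, 327 and 376. AMPD1, which deaminates AMP inside the cell, read 1435, 1319, 3112 and 3780.3. Both were within 0.25 of control at 8 h and past 2-fold at 16 h. TPBG, a leucine-rich surface glycoprotein, stood at 0.43, 1.46 and 1.45, FZD7, a Wnt receptor, at 0.69, 1.67 and 1.67, and the collagen gene COL24A1 at 1.04, 1.39 and 1.77. TMEM140 and TMEM45A, both of transmembrane proteins, differed by 1.69 and 1.11. The sodium channel gene SCN3A stood at 0.27, 1.36 and 1.79, BMPR1B, a receptor for bone morphogenetic proteins, at 1.06, and the peptide hormone gene NMU at 1.06. The surface and secreted genes of this class differed in their start, since COL24A1 had passed 2-fold at 8 h and TMEM45A had moved by 0.09.

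Stress and growth-restraint genes were next. EPAS1, which encodes the hypoxia-inducible factor HIF-2alpha, read 341, 607, 784 and 727. HIF1A, which encodes the better-known alpha subunit of the hypoxia response, stood at -0.62, and HIF3A at -0.83. The 3 genes of the alpha subunits were thus not on the same side of control. Of 36 measured HIF targets, 22 lay above 0 and 3 were 1.5-fold higher, with a median of 0.14. These were MXI1, an antagonist of MYC (0.81), P4HA1, a collagen prolyl hydroxylase (0.74), and BNIP3L, a mitophagy receptor (0.69). The HIF core ACGTG was found in 18 of 30 HIF target promoters (60.0%) and in 23.0% of all. Genes 1.5-fold higher at 16 h held it in 24.3% of promoters. The list was made of known HIF targets, so its high share is not independent of their choice. Of 31 glycolysis and citric acid cycle genes, 20 lay above 0 and none was past 1.5-fold, with a median of 0.12.

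CCNG2, an atypical cyclin that restrains the cell cycle and a classical FOXO target, read 505, 597, 1120.2 and 1098. Its other 3 probe sets gave 1.14, 1.05 and 0.99, all near its own 1.15. Of 28 measured FOXO targets and brakes on mTOR, 25 lay above 0 and 8 were 1.5-fold higher, with a median of 0.27 and none 1.5-fold lower. They included SOD2, the mitochondrial superoxide dismutase (0.92, 0.90 and 0.72), SESN3, a sestrin (0.63, 0.86 and 0.74), IRS2, the insulin receptor substrate (0.62), PIK3IP1, an inhibitor of phosphoinositide 3-kinase (0.61), GADD45A (0.61) and TSC22D3, the glucocorticoid-induced leucine zipper GILZ (0.60). CCNG2 and TSC22D3 stood at 0.24 and -0.10 at 8 h, while SOD2 and SESN3 were already past 1.5-fold. EIF2AK4, the amino acid sensor GCN2, stood at 0.22, 1.27 and 1.17 on its brightest probe set and at 0.07 on its other. ARID5B, a DNA-binding regulator, read 671, 862, 1397 and 1437.

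Autophagy and lysosome genes lay mostly above control. Of 42 measured autophagy genes, 32 lay above 0 and 4 were 1.5-fold higher, with a median of 0.25 against -0.02 at 8 h. They were NBR1, a cargo receptor (-0.03, 0.90 and 0.82), GABARAPL1, a ubiquitin-like protein of the autophagosome membrane (0.70, 0.89 and 0.74), BNIP3L (-0.30, 0.69 and 0.90), and TFE3, a transcription factor of lysosomal genes (0.47, 0.65 and 0.63), whose other probe set lay on the opposite side. Of 49 lysosomal genes, 38 lay above 0 and 3 were 1.5-fold higher, with a median of 0.10. GLA, the alpha-galactosidase, read 1193, 2314, 2544 and 2058. ATP6V0A1, a subunit of the proton pump, stood at 0.80 and CLN3, a lysosomal membrane protein, at 0.76. NBR1 was at the control level at 8 h and BNIP3L below it, and both were past 1.5-fold higher at 16 h.

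The other genes of the 39 were of varied function. SELENOP, the selenium carrier of plasma, read 743, 768, 1845 and 1701 on its brightest probe set, and its other probe set gave 0.34. HOPX, a homeodomain protein that does not bind DNA, read 125, 140.5, 302 and 278, and LINC00324, a long noncoding RNA, read 137, 158, 398 and 401. TRANK1 read 123, 117, 289 and 299. All 4 genes were within 0.25 of control at 8 h and held their 16 h level at 24 h to within 0.15. BHLHE41, a repressor of the circadian clock, stood at 0.57, 1.23 and 1.18, but its other 2 probe sets gave 0.93 and -0.11. EMP1, an epithelial membrane protein, stood at 1.06, with its others at 0.82 and -0.18. The remaining 5, GDPD1 (1.55), FBLL1 (1.23), MAP2 (1.09), ODAPH (1.07) and ODF4 (1.05), were dim on the control array, under 190 intensity units.

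Of the 9 higher genes with an intermediate value at 24 h, GLA and CXCL10 are given with their lists. RNF44, a RING finger gene, read 505, 834, 1124 and 1009 and was close to 2-fold at each of 16 h and 24 h. FAM13A read 58, 95.8, 152 and 115, from a control value under the array median. TSC22D1 stood at 0.27, 1.01 and 0.99 with its other probe set at 0.10, and IRAK2, a kinase of the toll-like receptor pathway, read 106, 141, 212 and 176. YPEL2 (1.07) and ABTB1 (1.05) were past 2-fold by a small margin. RPL13AP17 (1.05) is a pseudogene of a ribosomal protein, so its probe set may read the parent gene.

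Genes of p53 and of apoptosis showed no common direction. Of 28 measured p53 targets, 14 lay above 0 and 14 below, with a median of 0.01. TP53INP1 stood at 0.44, 1.15 and 1.16 on its brightest probe set and at -0.33 on its other, so its direction depended on the probe set. PLK2, a stress-induced kinase, stood at 0.05, 0.95 and 0.90, and CDKN1A, the cell-cycle inhibitor p21, at -0.28, -0.67 and -1.05. Of 29 genes of the BCL2 family and death receptors, BMF, a BH3-only protein that promotes apoptosis, read higher at 0.31, 0.89 and 0.81. PMAIP1, the BH3-only protein NOXA, had intensities of 434, 322, 217 and 185 and was just past 2-fold lower at 16 h. BCL2 itself differed by 0.62, with 1 of its other 2 probe sets on the opposite side. The median of these 29 genes was 0.07.

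**Figure D2:**
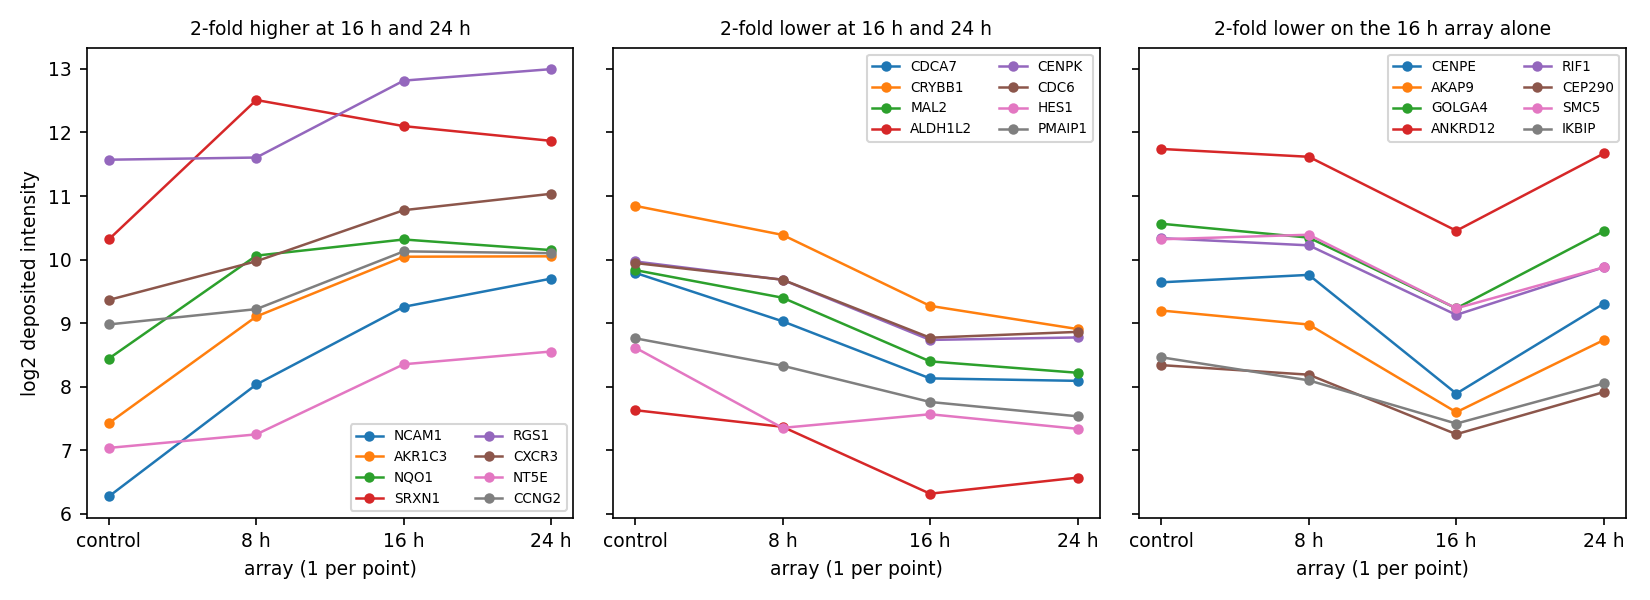
Log2 deposited intensity of 24 genes on the control, 8 h, 16 h and 24 h arrays, 1 array per point, in 3 panels by class. Genes of the left and middle panels hold their 16 h position at 24 h, whereas the 8 genes of the right panel have their lowest point at 16 h and lie nearer the control value at 24 h.

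The lasting lower side held many genes of DNA replication. The helicase that opens replication origins is loaded in G1 by ORC, CDC6 and CDT1 as a ring of MCM proteins, and is then activated by CDC45 and GINS. Of 26 measured genes of licensing and the helicase, 25 lay below 0 at 16 h, with a median of -0.57 against -0.06 at 8 h and -0.72 at 24 h. Of these, 13 were at least 1.5-fold lower at 16 h, 12 of them also at 24 h and none on the 16 h array alone. CDC6, the loading ATPase, read 987, 822, 437 and 465. MCM2 (-0.98), MCM5 (-0.98), MCM6 (-0.86), MCM3 (-0.79) and MCM7 (-0.76), subunits of the ring, were all past 1.5-fold, and all were within 0.25 of control at 8 h. GINS2 stood at -0.11, -0.96 and -1.16, CDC45 at -0.69 at 16 h, ORC1 at 0.08, -0.74 and -0.89 and CDT1, whose protein is a cullin ligase substrate, at -0.10, -0.65 and -0.94. In bulk RNA, fewer cells in S phase and less RNA per cell cannot be told apart.

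Genes of the fork followed the same course. All 33 measured genes of fork and polymerases lay below 0 at 16 h, 10 of them 1.5-fold lower and 9 of these also at 24 h, with a median of -0.48. The list also held CDCA7, which recruits the chromatin remodeller HELLS. CDCA7 had intensities of 887, 523, 280.4 and 273, 3.16-fold lower at 16 h and the lowest of the lasting genes. HELLS stood at -0.06, -0.96 and -0.97. POLE2, a subunit of the leading-strand polymerase, differed by -0.88, UHRF1, a reader of hemimethylated DNA, by -0.73, and the clamp loader subunits RFC5 and RFC3 by -0.72 and -0.70. CDCA7 was already at -0.76 at 8 h, while HELLS, UHRF1 and RFC5 were between -0.15 and -0.06. In repair, 31 of 36 measured genes of Fanconi anaemia, recombination and checkpoint lay below 0, with a median of -0.50 and 11 at 1.5-fold lower, 9 of them also at 24 h. BRIP1, a helicase that works with BRCA1, read 972, 892, 482 and 552. FANCM (-0.05, -0.93 and -0.91), BLM (-0.03, -0.80 and -0.80), BRCA1 (-0.14, -0.76 and -0.80) and CHEK1 (0.02, -0.73 and -0.90) had nearly the same differences at 16 h and 24 h.

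Regulators of S phase entry and nucleotide supply differed less. Of 34 measured E2F factors, cyclins and kinases, 24 lay below 0 and 5 were 1.5-fold lower, with a median of -0.13. These were E2F2 (-0.38, -0.96 and -1.01), RBL1, the pocket protein p107 (-0.23, -0.78 and -0.65), CDC25A (-0.68, with 1 of its other 2 probe sets above 0), CCND2, the D-type cyclin of this line (-0.66, -0.67 and -0.68), and CDKN1A. Of 28 genes of deoxynucleotide synthesis, 25 lay below 0 but only GMPS (-0.65) was 1.5-fold lower, and TYMS and TK1 stood at -0.51 and -0.48. The median of this list was also -0.13.

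The promoters of 4 lasting lower genes of the licensing and fork lists are shown because they hold the letters of an E2F site. Those of 2 genes lower on the 16 h array alone are shown beside them. E2F factors drive S phase genes through sites written TTTGGCGC or TTTCCCGC. Each line is the 250 bases before the start site, from RefSeq on GRCh38.p14, written 5′ to 3′ on the gene's strand, with capitals on the letters of an E2F site in either orientation.
CDCA7 promoter, chr2:173354622-173354871, plus strand: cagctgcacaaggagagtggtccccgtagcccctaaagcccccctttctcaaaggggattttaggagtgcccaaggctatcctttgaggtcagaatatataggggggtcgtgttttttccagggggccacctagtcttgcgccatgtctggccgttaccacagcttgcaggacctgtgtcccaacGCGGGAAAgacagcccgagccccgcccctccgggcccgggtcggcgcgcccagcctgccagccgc
GINS2 promoter, chr16:85688955-85689204, minus strand: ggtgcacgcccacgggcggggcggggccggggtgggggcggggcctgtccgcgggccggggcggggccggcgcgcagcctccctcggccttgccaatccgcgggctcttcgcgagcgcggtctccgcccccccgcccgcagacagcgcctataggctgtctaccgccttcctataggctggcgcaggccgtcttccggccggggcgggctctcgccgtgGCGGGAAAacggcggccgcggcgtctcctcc
HELLS promoter, chr10:94545538-94545787, plus strand: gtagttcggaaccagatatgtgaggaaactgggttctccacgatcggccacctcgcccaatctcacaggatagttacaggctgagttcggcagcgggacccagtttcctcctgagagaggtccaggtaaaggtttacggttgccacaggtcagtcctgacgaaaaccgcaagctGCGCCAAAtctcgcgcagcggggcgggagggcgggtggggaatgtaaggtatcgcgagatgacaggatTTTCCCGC
MCM6 promoter, chr2:135876444-135876693, minus strand: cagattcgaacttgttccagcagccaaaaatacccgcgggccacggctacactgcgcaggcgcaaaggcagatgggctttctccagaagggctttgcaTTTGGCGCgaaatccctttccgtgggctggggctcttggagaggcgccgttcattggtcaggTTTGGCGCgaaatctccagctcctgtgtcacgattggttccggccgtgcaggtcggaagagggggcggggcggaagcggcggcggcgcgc
CENPE promoter, chr4:103198344-103198593, minus strand: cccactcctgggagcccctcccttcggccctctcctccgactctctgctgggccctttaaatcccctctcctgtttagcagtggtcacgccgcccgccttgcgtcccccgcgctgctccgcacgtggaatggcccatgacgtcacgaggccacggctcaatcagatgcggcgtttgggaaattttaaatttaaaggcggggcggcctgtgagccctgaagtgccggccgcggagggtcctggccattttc
ANKRD12 promoter, chr18:9137313-9137562, plus strand: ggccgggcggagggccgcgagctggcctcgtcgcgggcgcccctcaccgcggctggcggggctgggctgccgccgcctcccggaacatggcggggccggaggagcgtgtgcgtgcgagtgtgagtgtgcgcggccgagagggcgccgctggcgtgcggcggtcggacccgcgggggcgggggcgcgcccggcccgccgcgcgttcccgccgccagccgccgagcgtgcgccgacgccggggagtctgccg
The site in CDCA7 lay 65 to 58 bases before the start and that in GINS2 31 to 24 bases before it. HELLS held a site at 76 to 69 bases and another at 8 to 1 bases before its start, and MCM6 held sites at 152 to 145 and at 90 to 83 bases. CENPE and ANKRD12 held none in this window.

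Over all measured genes with a promoter in the table, 308 of 10038 (3.07%) held at least 1 of these sites on either strand. Among genes at least 1.5-fold lower at both 16 h and 24 h the share was 18 of 132 (13.6%). Among genes 1.5-fold lower on the 16 h array alone, defined with a limit of 0.3 at 8 h and 24 h, it was 1 of 47 (2.13%). The shares were 6 of 22 (27.3%) for licensing genes, 8 of 29 (27.6%) for fork genes and 3 of 222 (1.35%) for genes 1.5-fold higher. The licensing and fork lists were made of genes known to be cycle-regulated, so a high share in them is not independent of their choice. The lasting lower class was chosen by intensity alone, although it holds members of both lists.

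Other lasting lower genes had no part in replication. KLF2, a transcription factor of lymphocyte quiescence, read 706, 301, 286 and 269, and HES1, the Notch-responsive repressor, read 392, 163, 189.6 and 162. Both had reached their lower level by 8 h. ID3 (-0.63, -0.85 and -1.10), an inhibitor of basic helix-loop-helix factors, and HES6 (0.05, -0.76 and -1.06) lay on the same side. CRYBB1, a crystallin, read 1840.4, 1340.4, 618 and 480.1, MAL2, a proteolipid of membrane transport, read 913, 676, 337 and 298, and FUT9, a fucosyltransferase, read 178, 149, 81.1 and 78.8. ALDH1L2, the mitochondrial folate enzyme and an ATF4 target, read 198, 165, 79.7 and 95, its 16 h value under the array median, as was that of FUT9. TUBB2B, a beta tubulin, stood at -0.78, -1.22 and -1.23, and 13 of 14 measured tubulins lay below 0 with a median of -0.20. The only measured probe set of TUBB2B has a name that marks possible cross-hybridisation, so it may read related genes. CENPK, a kinetochore subunit, read 1004, 822, 426 and 438, and PSMC3IP read 1057, 706, 471 and 473.

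The 16 lower genes that were intermediate at 24 h lay between the lasting and the passing genes. RBM3, a cold-induced RNA-binding protein, read 3119, 2247, 1239 and 1661. DLEU2, the host transcript of the microRNAs miR-15a and miR-16-1, stood at -0.30, -1.19 and -0.83, and CASP8AP2, a factor of histone mRNA processing, at -0.18, -1.16 and -0.66. FAM111B read 2104, 1894, 855 and 1234, and GEN1, a resolvase of recombination intermediates, read 489.6, 440.5, 242 and 297. Each of these was lowest at 16 h of the 4 arrays. The splicing regulator MBNL3 (-0.22, -1.11 and -0.77), the centrosome gene LRRCC1 (-0.50, -1.08 and -0.59), the microtubule-severing gene FIGN (-0.37, -1.20 and -0.67), the secreted factor TAFA5 (-0.36, -1.03 and -0.66) and the membrane protein STOM (-0.73, -1.02 and -0.97) completed the class with BRIP1, CCL5 and 4 genes described below.

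The passing lower genes were the 8 lower on the 16 h array alone, CENPE, AKAP9, GOLGA4, ANKRD12, RIF1, CEP290, SMC5 and IKBIP. CENPE, the kinesin that carries chromosomes to the spindle equator, read 799, 867, 238 and 633. It was 3.37-fold lower at 16 h, the lowest difference of all measured genes, and stood at -0.34 at 24 h. AKAP9, a scaffold of the centrosome and Golgi, read 588, 504, 194 and 426, and GOLGA4, a coiled-coil golgin, read 1514, 1301, 602 and 1395. ANKRD12, an ankyrin repeat protein of nuclear receptor coregulation, read 3422, 3141, 1402 and 3257, and its other 3 probe sets gave -1.50, -1.12 and -1.05. In all 4 genes the 16 h reading was the lowest of the 4 arrays, by at least 1 on the log2 scale from the next lowest.

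RIF1, which controls replication timing and double-strand break repair, read 1294, 1196, 560.3 and 942, and 1 of its 7 other probe sets lay at 0.11. CEP290, a protein of the ciliary transition zone, read 324, 292, 153 and 242, and its other probe set gave -1.63. SMC5, of the SMC5/6 repair complex, read 1278, 1343, 602 and 942, and its other 2 gave -1.07 and -1.09. IKBIP read 353, 274, 171 and 265. The other probe set of GOLGA4 gave -0.62, while CENPE, AKAP9 and IKBIP had no other measured probe set. With the median over all probe sets of a gene, dim ones included, 4 genes were lower on the 16 h array alone, and with the limit at 8 h and 24 h set to 0.3 or to 0.7 there were 2 or 14.

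Another rule, on the same values, treated the 4 arrays alike. It took genes at least 1.5-fold above, or below, each of the other 3 arrays. The 16 h array stood below the others for 33 genes (0.265% of measured genes) and above them for none, and the largest margin above was 0.56, for CXCL10. The control array stood below for 42 genes (0.337%) and above for 24 (0.193%), the 8 h array for 28 (0.225%) and 5 (0.0402%), and the 24 h array for 3 (0.0241%) and 5 (0.0402%). The 33 held the 8 genes lower on the 16 h array alone, which follows largely from the definitions, and 4 of the 16 genes that were intermediate at 24 h, so that 12 of the 33 were 2-fold lower. Of the 33, 26 had another measured probe set, which agreed in sign throughout in 22 and reached 1.5-fold in the same direction in 21. For those 21 genes the lower readings were seen by separate probe sets on the same array, which does not replace another culture. The rest had no other measured probe set, as for CENPE, AKAP9 and TEX15, or none that reached 1.5-fold.

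**Figure D3:**
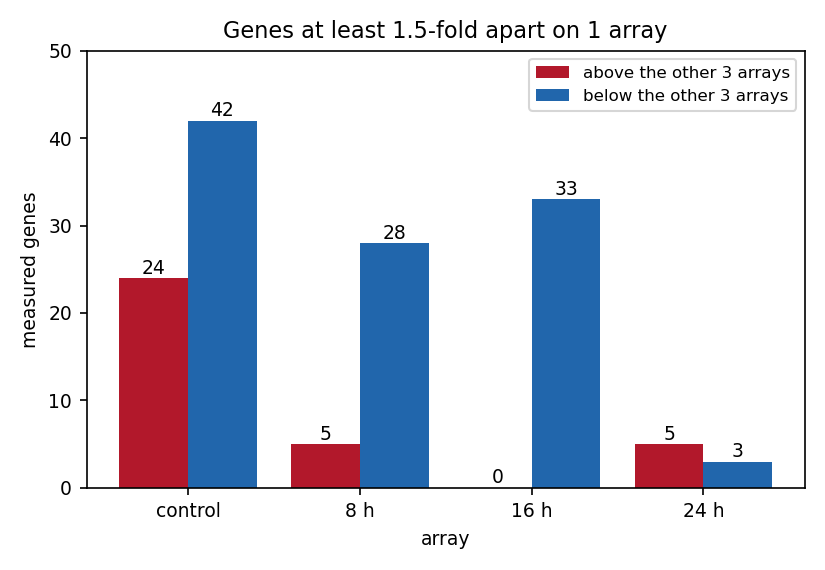
Number of measured genes at least 1.5-fold above (red) or below (blue) each of the other 3 arrays, for each of the 4 arrays. The 16 h array has 33 genes below and 0 above, and the control array has 42 below and 24 above.

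After the 4 leading genes the order by distance from the next lowest array was ASPM, KIF20B, COG5, CENPF, TEX15, EEA1, RIF1, TPR, CCDC18, HOOK1 and ZNF91. ASPM, a protein of the spindle poles, read 3093, 3359, 1572 and 3074, and CENPF, a large kinetochore protein, read 2932, 3305, 1725 and 2981. Both were far above the array median, and at 24 h they differed from control by -0.01 and 0.02. KIF20B, a kinesin of cytokinesis, read 654, 548, 214 and 402, although its other probe set gave -0.08. COG5, of the Golgi tethering complex, read 843, 804, 429 and 793, but its other 2 probe sets gave -0.24 and -0.08. EEA1, the early endosome tether, read 516, 329, 196 and 353, with its other 2 at -1.41 and -0.13, and TPR, the basket protein of the nuclear pore, read 3498, 3055, 1833 and 3221. TEX15, a protein of germ cells, read 364, 333, 108 and 184, and was still -0.98 at 24 h. HOOK1, a dynein adaptor, differed by -0.95, CCDC18 by -1.38 and ZNF91 by -0.69, the last with its other 2 probe sets at -0.11 and -0.07. The 33 genes thus included products of the spindle, Golgi, endosome and nuclear pore.

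Genes apart on the 16 h array were long in the genome. Gene span, the distance from start to end in RefSeq on GRCh38.p14, includes introns. It is not a measure of transcript length, which was not used here. The 33 genes had a median span of 90.5 kb, from 27.3 to 363 kb, and 31 of them (93.9%) spanned over 30 kb. Over all measured genes the median was 28.1 kb and 47.8% were over 30 kb. Genes below the others had a median of 30.1 kb on the control array (42 genes), 24.7 kb on the 8 h array (28 genes) and 111 kb on the 24 h array (3 genes), and the 24 genes above the others on the control array had 48.1 kb. The 8 genes lower on the 16 h array alone had a median of 110 kb, the 12 lasting 2-fold lower genes 15.5 kb and the 16 intermediate ones 77.4 kb. In the larger 1.5-fold classes the difference was smaller, with 66.4 kb for the 55 genes lower on the 16 h array alone and 45.6 kb for the 161 lower at both times, of which 65.8% were over 30 kb. Span was not used by any of these rules. CENPE spans 92.5 kb, GOLGA4 124 kb and AKAP9 170 kb.

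The same was seen without choosing genes by class. Of measured genes under 10 kb, 1.28% were at least 1.5-fold lower at 16 h, of those from 10 to 30 kb 1.73%, of those from 30 to 100 kb 4.22% and of those of 100 kb and over 3.73%. At 24 h the same shares were 1.83%, 2.04%, 2.74% and 2.65%, and at 8 h 1.14%, 0.811%, 1.17% and 1.56%. The share of 1.5-fold higher genes at 16 h was 2.34%, 2.01%, 2.08% and 2.74%. The median difference of the longest genes was 0.02 at 16 h, so most long genes were not lower. The hybridisation spike-ins given above were lowest on this array. The 3' to 5' ratio of ACTB at 16 h lay between those of the 8 h array (1.95) and the control, and that of GAPDH was 1.18 at both 8 h and 16 h. Their part in the lower readings of long genes was not tested.

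**Figure D4:**
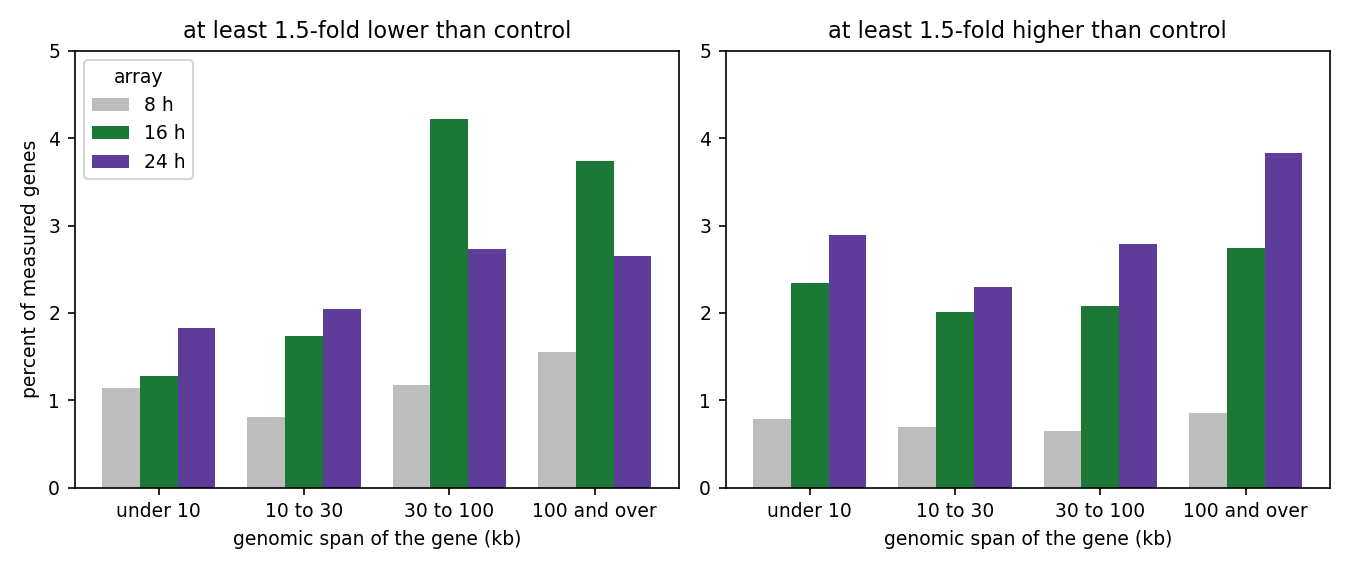
Percent of measured genes at least 1.5-fold lower (left) or higher (right) than control, by genomic span of the gene in kb, for the 8 h, 16 h and 24 h arrays. On the left the 16 h bars are 1.28% under 10 kb and 4.22% from 30 to 100 kb, and the 24 h bars are 1.83% and 2.74%.

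Lasting and passing lower genes were both found in the mitotic lists. Of 66 measured spindle, kinetochore and condensin genes, 55 lay below 0 at 16 h and 13 were 1.5-fold lower, with a median of -0.27. Only 2 of the 13, CENPK and CENPQ (-0.61), were also 1.5-fold lower at 24 h. Under the 0.3 limit 5 of the 66 were lower on the 16 h array alone, against 55 of all 12446 measured genes. These 5 were ASPM, CENPF, SMC4, a condensin subunit (-0.12, -0.73 and -0.28), SGO2, a protector of cohesin (0.20, -0.71 and -0.16), and CENPC, of the inner kinetochore (-0.06, -0.60 and -0.13). SMC2 (0.11, -0.91 and -0.42), KNL1 (-0.05, -0.85 and -0.39), SMC3 (-0.04, -0.80 and -0.32) and MKI67 (0.03, -0.61 and -0.37) lay between. The licensing list, by contrast, had 13 genes lower at 16 h and 18 at 24 h, and the spindle list had 13 and 6. The letters TTTGAA of the cell cycle homology region were in 39.6% of the spindle promoters and in 8.55% of all, in 6.38% of those of genes 1.5-fold lower on the 16 h array alone, and in 13.3% of those of genes apart on the 16 h array. They were in 6 of 29 promoters of genes 2-fold lower and in 9 of 41 of genes 2-fold higher. The spindle list was made of mitotic genes, so its high share is not independent of their choice.

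Of 26 measured kinesins, 16 lay below 0 and 5 were 1.5-fold lower, with a median of -0.13. KIF15 (-0.15, -0.95 and -0.77) and KIF18A (-0.26, -0.94 and -0.52), mitotic motors, and KIF21A (-0.09, -0.95 and -0.64), a motor of interphase microtubules, were lower beside KIF20B and KIF14 (0.08, -0.64 and -0.17). Of 36 centrosome and cilium scaffolds, 28 lay below 0 and 7 were 1.5-fold lower at 16 h, against 1 at 24 h, with a median of -0.24. Beside AKAP9 and CEP290 these were CEP135 (-0.37, -0.85 and -0.66), CNTRL (-0.10, -0.83 and -0.30), CEP295 (-0.22, -0.82 and -0.40), CEP78 (0.13, -0.76 and -0.45) and CEP63 (-0.27, -0.61 and -0.37). Of 28 golgins and endosome tethers, 5 were 1.5-fold lower at 16 h and none at 24 h, although the median of the list was only -0.04. GOLGB1, the giant golgin, read 759.5, 617, 482 and 978, lower at 16 h and higher than control at 24 h. VPS41 (0.29, 0.63 and 0.57), of the endosome fusion machinery, was the 1 member past 1.5-fold on the higher side.

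Genes of large nuclear proteins held both lasting and passing lower genes. Their list, like those of the golgins and centrosome scaffolds, was chosen with earlier results of these data known. Its members are thus no independent support for the division into lasting and passing genes, and protein lengths were not computed. Of 50 chromatin regulators with large proteins, 5 were 1.5-fold lower, with a median of -0.03. Over all 12446 measured genes 55 were lower on the 16 h array alone, and this held for 4 of the 5. They were PHF3 (-0.10, -0.74 and -0.07), ATRX, the remodeller of heterochromatin (-0.13, -0.72 and 0.02), CHD1 (-0.07, -0.65 and -0.05) and ZNF292 (-0.08, -0.60 and 0.10). TET3 (-0.29, -0.62 and -0.69), which oxidises methylcytosine, was lower at 24 h as well, with 1 of its other 2 probe sets above 0. ARID1B was 1.5-fold higher (0.39, 0.75 and 0.87), but 2 of its other 5 probe sets lay below 0. Of 49 nuclear pore and transport genes, 39 lay below 0 and 4 were 1.5-fold lower, TPR and RANBP2 (-0.18, -0.59 and -0.06) on the 16 h array alone and NUP93 (-0.21, -0.73 and -0.60) and NUP58 (-0.16, -0.62 and -0.87) at both times. RAD50 (-0.18, -0.79 and -0.02) and PMS1 (-0.07, -0.70 and -0.23), of break and mismatch repair, were the 2 members of the Fanconi, recombination and checkpoint list 1.5-fold lower on the 16 h array alone, and each had a probe set on the opposite side of 0.

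Genes named ZNF, a grouping chosen after their values were seen, made up 5 of the 33 genes apart on the 16 h array (15.2%) and 8 of the 55 that were 1.5-fold lower there alone (14.5%). They made up 2 of the 161 genes 1.5-fold lower at both times (1.24%) and 291 of all measured genes (2.34%). ZNF91, ZNF92, ZNF138, ZNF107 and ZNF644 were the 5. The zinc finger genes contain near-identical repeats, so a probe set may read several of them.

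On the higher side at 1.5-fold, 223 of 279 genes were also 1.5-fold higher at 24 h. Another 54 were in neither class, with 24 h values from 0.14 to 0.58. Only IFI27L2, with intensities of 304, 306, 471 and 339, and HTR1E, with 137, 153, 206 and 158, were higher on the 16 h array alone. On the lower side 161 of 340 were also 1.5-fold lower at 24 h, 55 were lower on the 16 h array alone and 124 were in neither class. The 124 had 24 h values from -0.58 to 0.36, since a gene past the 0.3 limit at 8 h was placed there whatever its 24 h return. This split was added after the 2-fold split had been seen. Of the 55, 20 were among the 33 genes apart from every other array.

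Protein synthesis and secretion genes lay slightly below control. Of 45 nucleolar ribosome biogenesis genes, 38 lay below 0 with a median of -0.19, and LYAR (-0.65) and PUS7 (-0.62) were 1.5-fold lower. Of 17 aminoacyl-tRNA synthetases, 14 lay below 0, also with a median of -0.19, and WARS1 (-0.61) was 1.5-fold lower. Of 62 splicing factors, 57 lay below 0 with a median of -0.19, and RBM25 (-0.17, -0.66 and -0.17) was 1.5-fold lower, on the 16 h array alone. Of 37 initiation factors, 22 lay below 0, and EIF5B (0.06, -0.76 and -0.14) was the only one past 1.5-fold, with 1 of its other 5 probe sets above 0. The 52 cytoplasmic ribosomal protein genes had a median of 0.01 and the 75 mitochondrial ones -0.03, with none past 1.5-fold in either list.

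Of 50 genes of ER translocation, folding and degradation, 38 lay below 0 and 4 were 1.5-fold lower, with a median of -0.15. CRELD2 (-0.44, -0.98 and -0.76) and MANF (-0.32, -0.63 and -0.45), both secreted on ER stress, were lower at each time, as was SELENOS (-0.50, -0.60 and -0.25), of the retrotranslocation machinery. DNAJC10 (-0.29, -0.59 and -0.15), an ER disulfide reductase, was lower on the 16 h array alone. COPI, COPII and Golgi transport genes had a median of -0.14, with none of 39 past 1.5-fold. Of 32 ATF4 targets and amino acid supply genes, 23 lay below 0 with a median of -0.15, and only ALDH1L2 was past 1.5-fold. Of 28 genes of cholesterol and fatty acid synthesis, 23 lay below 0 with a median of -0.24, against 0.15 at 8 h. LSS (-0.06, -0.74 and -0.58) and ACAT2 (0.22, -0.68 and -0.57), enzymes of the sterol pathway, and SREBF1 (-0.31, -0.62 and -0.60), a transcription factor of lipid synthesis, were 1.5-fold lower. The sterol list was thus above control at 8 h and below it at 16 h.

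Respiratory chain genes lay on the other side. Of 67 measured subunits of the respiratory chain and ATP synthase, 58 lay above 0 at 16 h, none was past 1.5-fold, and the median was 0.14. NDUFA10 (0.49), NDUFB5 (0.47) and SDHD (0.47) were among the highest. Their median span was 10.5 kb, and genes under 10 kb had a median difference of 0.06.

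**Figure D5:**
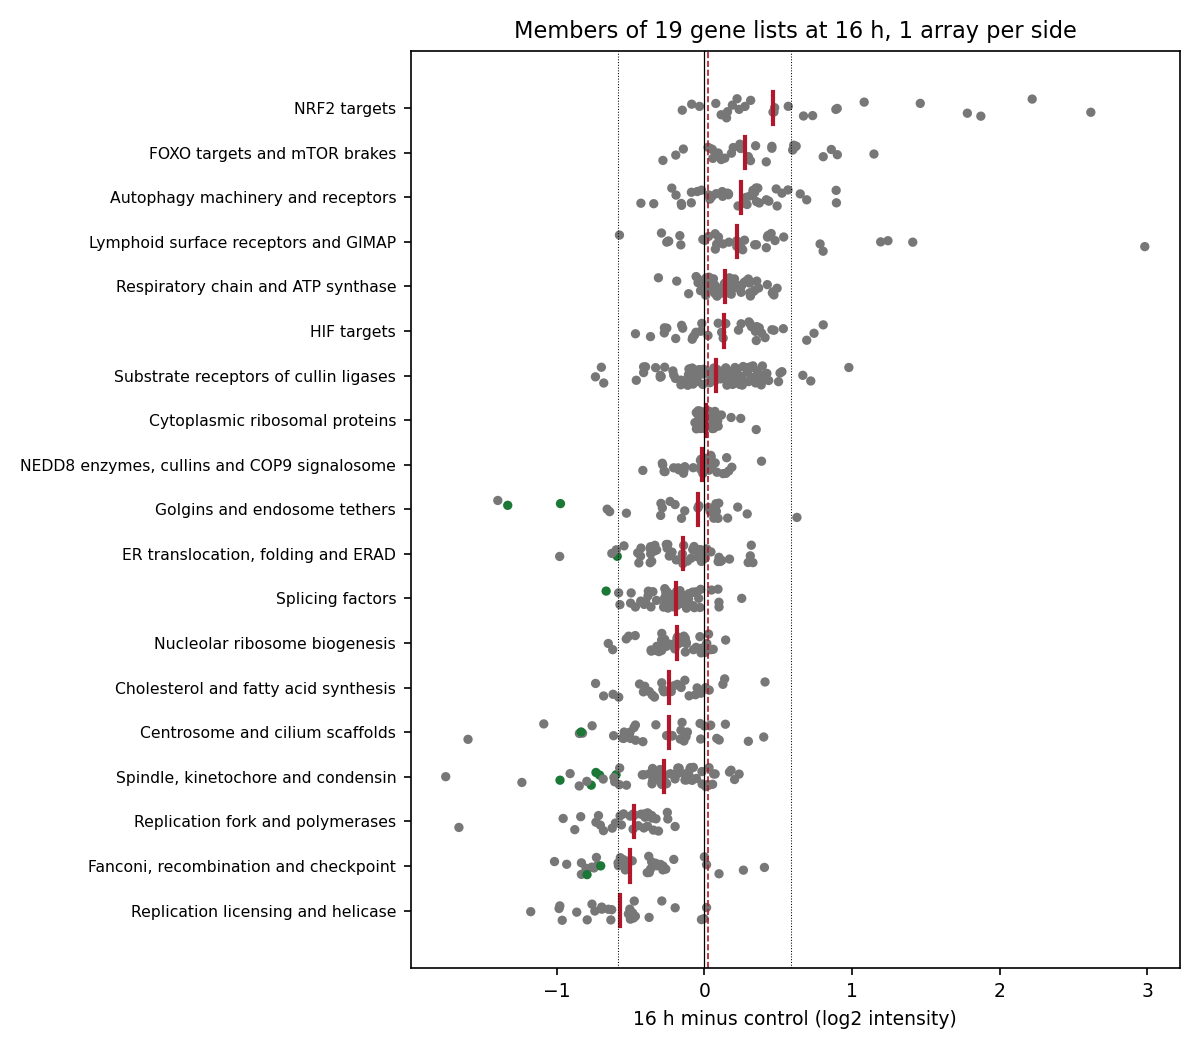
Differences of single genes from control at 16 h for 19 of the gene lists, 1 array per side. Each point is a measured gene, red bars are list medians, the dashed line is the median of all measured genes (0.03), dotted lines mark 1.5-fold, and green points are genes 1.5-fold lower on the 16 h array alone. Medians run from 0.47 for NRF2 targets to -0.57 for replication licensing. Green points number 5 in the spindle list, 2 each in the golgin and Fanconi lists and 1 each in the centrosome, ER and splicing lists. The replication licensing and fork lists hold none, and over all 12446 measured genes there are 55.

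The genes of the inhibited pathway itself showed little difference. Of 33 measured NEDD8 enzymes, cullins and COP9 signalosome subunits, 14 lay above 0 and 19 below, none was past 1.5-fold, and the median was -0.01. NEDD8 read 2082, 2052, 2370.1 and 2352, NAE1 2782, 3287, 2735 and 2752 and UBA3 2233, 1953, 2230.4 and 2330.4. The arrays measure RNA, so these values say nothing of the activity of the enzyme or of the NEDD8 on cullins. The largest differences were in RBX1, the RING subunit (-0.19, -0.42 and -0.42), COPS6 (0.24, 0.39 and 0.02) and CUL5 (0.17, -0.28 and 0.21). Of 114 substrate receptors of cullin ligases, 70 (61.4%) lay above 0 with a median of 0.08, against 54.3% above 0 of all measured genes. Past 1.5-fold were 3 higher and 3 lower, near the shares of all measured genes, 2.24% higher and 2.73% lower. The lower were DTL, the receptor for CDT1 (-0.13, -0.68 and -0.92), FBXO5, the inhibitor of the anaphase-promoting complex EMI1 (-0.17, -0.70 and -0.76), and FBXO4 (-0.59, -0.74 and -0.66). The higher were FBXO44 (0.58, 0.98 and 0.85), BRWD3 (0.52, 0.72 and 0.72) and FBXL20 (0.18, 0.67 and 0.74), of which FBXO44 and BRWD3 each had a probe set on the opposite side of 0.

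Protein quality control downstream of these ligases was near control. Of 47 proteasome subunits and assembly factors, 34 lay below 0 with a median of -0.11, and only the assembly factor PSMG3 (-0.61) was 1.5-fold lower. Of 42 ubiquitin-specific and related proteases, the median was -0.09 and UCHL3 (-0.65) was 1.5-fold lower. Of 38 chaperones, 28 lay below 0 with a median of -0.10. DNAJB1, a co-chaperone of HSP70 and a heat shock gene, stood at 0.25, -0.83 and -0.73, and DNAJC2, a ribosome-bound co-chaperone, at 0.15, -0.79 and -0.25. No list in this group held a member 1.5-fold higher at 16 h.

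Myeloma and NF-kB genes were mixed. Of 36 plasma cell and myeloma genes, 18 lay above 0 and 18 below, with a median of -0.01. MAFF, a small MAF protein, stood at 0.04, 0.78 and 0.77 and DUSP6, a phosphatase of ERK, at 0.24, 0.63 and 0.63, and both were 1.5-fold higher, as was TSC22D3, while CCND2 was lower. Of 27 NF-kB subunits and feedback genes, 13 lay above 0, with a median of -0.04 against -0.27 at 8 h. CCL5, a chemokine, read 675, 479, 335 and 364. CXCL10, the ligand of CXCR3, read 265, 188, 580.3 and 392, below control at 8 h and above it at 16 h. It was the higher gene with the smallest share of its 16 h difference left at 24 h, 0.57 of 1.13.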

How the data were processed

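Total RNA of MM.1S cells was labelled with biotin as cRNA and read on 4 Affymetrix arrays of 54675 probe sets, per the labels' protocols. The values deposited by the authors are linear intensity values. How they were summarised and normalized is not given in the sources used here, and array medians were between 92.2 and 95.4. Each group had 1 array, which limits the precision.

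Values under a floor of 48.4 (the 25th percentile) were set to it before log2 was taken (Python 3.11.15, pandas 2.3.3, numpy 2.4.6). Of the probe sets, 41097 named exactly 1 gene in the array's annotation, 1801 named several and 11777 were not listed. Of the first, 41043 were matched to RefSeq by Entrez identifier. The brightest probe set stood for a gene, and 0 of 12446 measured genes were at the floor. RefSeq spans (12431 measured genes) and promoters (10038) were of GRCh38.p14.

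Counts at 2-fold were split by the 8 h and 24 h values. Any gene past 2-fold could be named, of each of 52 lists the members past 1.5-fold and up to 4 others of largest size, and of the genes apart on the 16 h array the 15 farthest. Members, lists and 7 motifs were chosen with earlier results of these data known. The procedure was tested on simulated data. Alternatives varied floor, normalization, filter, probe set, fold and class limits. Promoter windows end before the start site.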

Additional observations from a re-analysis of the deposited data

Results flagged for a closer look

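RAD18 and CCR2 differed from control in opposite directions at 8 h and 16 h, each by at least 1.5-fold, and these differences between the times were not tested, since each time was 1 array. RAD18, the ubiquitin ligase of DNA damage tolerance, had intensities of 120.2, 203, 72.8 and 104 on the control, 8 h, 16 h and 24 h arrays. Its log2 difference from control was 0.76 at 8 h and -0.72 at 16 h, and its 16 h value lay under the array median. Its other 2 measured probe sets both lay below 0 at 16 h. CCR2, a chemokine receptor of monocytes and memory lymphocytes, had intensities of 258, 163, 451 and 583. Its difference was -0.66 at 8 h and 0.81 at 16 h, and it stood at 1.17 at 24 h. It had no other measured probe set.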

How the results depend on the processing

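No paired analysis was possible because each group was 1 array. Taking the median of all probe sets of each gene gave 30 genes 2-fold higher (23 also at 24 h) and 22 lower (4 on the 16 h array alone). Without probe sets whose names end in _x_at or _s_at, 7 lower genes were also lower at 24 h, in place of 12. At 1.5-fold the counts were 279 higher and 340 lower. With the limit at 8 h and 24 h at 0.3, 2 lower genes were on the 16 h array alone, and with 0.7 there were 14, and 1 higher gene. With 1.5-fold and 0.3 together, chosen after seeing the data, the numbers were 55 lower and 2 higher. In 3 genes the direction turned, in TP53INP1 (-0.33) and TSC22D1 (-0.051) with the median over probe sets, and in BHLHE41 (-0.11) without the _x_at and _s_at probe sets; the cause was not tested. Without the 33 genes apart on the 16 h array, also an alternative chosen after seeing the data, 24 genes were 2-fold lower. Of the recomputed counts 39 stayed within 1.5 times, while 6 were larger and 6 smaller than that. Among single genes past 2-fold, 33 further values moved by more than the SD between probe sets of a gene (0.189) without turning, 25 of them with the median over probe sets, such as KIF20B (-0.08), MBNL3 (-0.16), RBM3 (-0.49) and TXNRD1 (0.54). For the 28 lists with a median of at least 0.1 in size, 14 of 224 recomputed medians moved by over 1.5 times and none changed sign. Among them were NRF2 targets (0.30 with no filter, 0.26 without _x_at and _s_at), autophagy (0.14) and cholesterol synthesis (-0.14) with the median over probe sets, and the MYC network (0.05 with the filter at the 75th percentile). For the 20 lists with smaller medians 16 of 160 changed sign, so their direction is not settled. The histone median was -0.29 with the filter at the 75th percentile. Dim genes, 7 of the 48 higher ones, limit what the folds show.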

Other observations

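Chemokine and interferon genes were few among the genes past 2-fold at 16 h, and their list lay slightly above control. Of 35 measured interferon response genes, 24 lay above 0, with a median of 0.08 at 16 h and 0.25 at 24 h. BST2, the tetherin that holds virus particles at the membrane, differed by 0.52 at 8 h, 0.98 at 16 h and 0.35 at 24 h. OAS1, a sensor of double-stranded RNA, differed by -0.04, 0.74 and 1.01 at these times, and the exonuclease gene ISG20 was lower, at -0.72 at 16 h. OAS1 and BST2 were both past 1.5-fold higher at 16 h, and of these BST2 was nearer to control at 24 h.

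Histone genes were split. Of 13 measured histone genes, 7 lay above 0 at 16 h. H2BC12 and H2AC6, genes of core histones, stood at 0.87 and 0.89 at 16 h and at 1.70 and 1.64 at 24 h. The linker histone genes H1-2 and H1-10 stood at -0.91 and -0.63. Histone genes are near-identical copies, so a probe set may read several of them. Of 24 genes of iron, heme and ferritin, 16 lay above 0 and 3 were 1.5-fold higher, with a median of 0.05. They were the iron exporter SLC40A1 (0.96), FTL (0.73) and the heme synthesis enzyme PPOX (0.70). Of 13 genes of the MYC, MAX and MXD network, 9 lay above 0 and only MXI1 (0.81) was past 1.5-fold, with a median of 0.15. The 15 polyamine genes had a median of -0.04 and none past 1.5-fold. Of 24 immediate early, AP-1, EGR and KLF genes the median was 0.05, with MAFF and DUSP6 1.5-fold higher and KLF2 lower. Of 38 HES, ID, Notch and Wnt genes the median was 0.08, with FZD7 and JAG1 (0.61, with 1 of its other 4 probe sets below 0) 1.5-fold higher and HES1, ID3 and HES6 lower.

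The letters of the amino acid response composite site, TGATGNAAN on either strand, were in 4 of 27 promoters of the ATF4 target list (14.8%). They were in 1.55% of the promoters of all measured genes, and in 3 of 284 promoters of genes 1.5-fold lower at 16 h (1.06%). The list held known ATF4 targets, so its share is not independent of their choice. The CCAAT box was in 35.1% of the promoters of all measured genes and in 45.5% of those of genes 1.5-fold lower at both 16 h and 24 h, with 42.6% for genes lower on the 16 h array alone, 43.3% for genes apart on it and 40.5% for genes 1.5-fold higher.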
